A study of Homo sapiens with 6 samples.

Results

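Small nucleolar RNAs were compared between T24, a human bladder cancer cell line, and T24/THP, a derivative of it that tolerates the anthracycline pirarubicin. The members were the array rows (transcript clusters) that carry exactly 1 gene symbol of the SNORA, SNORD or SCARNA series, leaving out the SNORD115 and SNORD116 copies. This gave 270 rows of 65854 in all, of which 26515 carry 1 symbol. They comprised 158 box C/D rows, 88 box H/ACA rows and 24 rows for Cajal body RNAs. In all they named 248 symbols.

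T24/THP was raised from T24 by 24 h exposures to pirarubicin, each followed by recovery in medium without drug, the dose going up stepwise between 5 and 1000 ng/ml, for over 6 months in all. Drug was added again every 2 to 3 weeks to keep the resistance. T24 was cultured alongside, and both were grown in RPMI-1640 with fetal bovine serum. Each line was measured in 3 samples that the labels call biological replicates, on Affymetrix whole-transcript arrays read as log2 intensity. The resistant line was made once, so a difference between the lines belongs to these cultures, and p-values measure the spread between their samples.

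Small nucleolar RNAs guide enzymes to their targets by base pairing. Box C/D RNAs bind fibrillarin and direct 2′-O-methylation, and box H/ACA RNAs bind dyskerin and direct pseudouridylation, mostly on ribosomal RNA. Cajal body RNAs do the same for the spliceosomal RNAs. In human cells most are cut from the introns of other genes, so that 1 transcript can give both a spliced host RNA and a small RNA. A few, among them the U3 and U13 RNAs, are transcribed on their own and serve the cleavage or modification of the ribosomal precursor.

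The hairpins of 4 microRNA genes that overlap members are shown: 3 carry the class-defining end of box H/ACA RNAs, and the fourth lies in SNORA34, whose difference between the lines just missed a call. All members' symbols matched RefSeq, 238 as current names and 10 through a synonym. In each RefSeq hairpin (GRCh38.p14), capitals mark the bases that lie inside the small RNA and lower case those outside it.
MIR664A in SNORA36B, chr1:220200538-220200619, minus strand: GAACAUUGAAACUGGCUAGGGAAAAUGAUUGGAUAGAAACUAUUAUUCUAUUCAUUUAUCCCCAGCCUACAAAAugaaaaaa
MIR3651 in SNORA84, chr9:92292458-92292547, minus strand: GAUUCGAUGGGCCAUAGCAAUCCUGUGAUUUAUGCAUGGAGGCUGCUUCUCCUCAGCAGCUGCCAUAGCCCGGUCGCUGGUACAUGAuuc
MIR1843 in SCARNA3, chr1:175968370-175968479, minus strand: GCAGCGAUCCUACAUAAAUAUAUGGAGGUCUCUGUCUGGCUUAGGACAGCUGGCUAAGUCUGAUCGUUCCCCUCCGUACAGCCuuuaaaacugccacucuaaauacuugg
MIR1291 in SNORA34, which RefSeq names SNORA2C, chr12:48654444-48654530, minus strand: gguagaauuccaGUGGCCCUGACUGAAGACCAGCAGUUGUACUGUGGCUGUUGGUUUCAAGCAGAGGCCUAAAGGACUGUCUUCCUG

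In the hairpins of SNORA36B, SNORA84 and SCARNA3 the capitals reach the 3′ end of the small RNA, and all 3 end in the triplet ACA followed by 3 more bases, the H/ACA box. The hairpin in SNORA34 covers its 5′ part instead. SNORA34 differed by 0.996 log2 units between the lines (adjusted p = 4.33e-05), just under the size asked of a call below. SCARNA3 differed by 0.22, SNORA84 by -0.08 and SNORA36B by -0.17, none with an adjusted p under 0.05. No value of the microRNAs themselves was used here.

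The rows named for small nucleolar RNAs were of 2 kinds. After counting rows with the same values on all 6 arrays once, 251 distinct rows remained. SNORD117 alone had 8 rows with 1 set of values, placed on chromosome 6 and its alternative haplotypes. Of the distinct rows, 213 spanned 60 to 421 bases, the size of a small RNA, and are called short rows below. The other 38 spanned 1727 to 130386 bases with up to 514 probes, and are called long rows. In RefSeq, 14 of the 38 small RNAs behind the long rows lie in a ribosomal protein gene or its pseudogene, 15 in a small nucleolar RNA host gene or GAS5, and 9 in other genes. Most long rows thus cover a host gene, exons included, under a small RNA's name, although the RefSeq table used gives no strand and the long row named SNORD97 is antisense to its gene. A short row cannot tell the small RNA from the same stretch of its precursor's intron.

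Array and background facts bear on all values. Pearson correlations between arrays over the 26515 rows ranged from 0.9965 to 0.9983 among arrays of 1 line and from 0.9767 to 0.9809 across lines. The background range was taken from 23 control probe sets and ended at 5.54 in T24 and 5.51 in T24/THP. Of the 213 short rows, 131 lay above it in at least 1 line. Short rows stood apart on 2 arrays: over these 131, T24 replicate 3 lay a median 0.18 log2 units above the mean of its line and T24/THP replicate 1 lay 0.20 below, whereas over the 10923 non-member rows above background no array lay further than 0.05 from its line. T24 replicate 3 was the highest of its line there too, by 0.05, and the 437 non-member rows of at most 500 bases lay 0.13 below on T24 replicate 3 and 0.08 below on T24/THP replicate 1. Counts are given with and without those 2 arrays. Of the fixed markers, 0 of 7 urothelial genes were above background in either line, 3 of 6 epithelial genes were (KRT7, KRT8 and KRT18), and so were 0 of 4 leukocyte genes. The mesenchymal marker VIM averaged 7.13 in T24 and 10.64 in T24/THP, and CDH5, the only 1 of 3 endothelial markers above background, averaged 12.30 and 13.12. Their part in the results was not tested, and in bulk cultures fewer cells of a kind and less RNA per cell cannot be told apart.

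**Figure D1:**
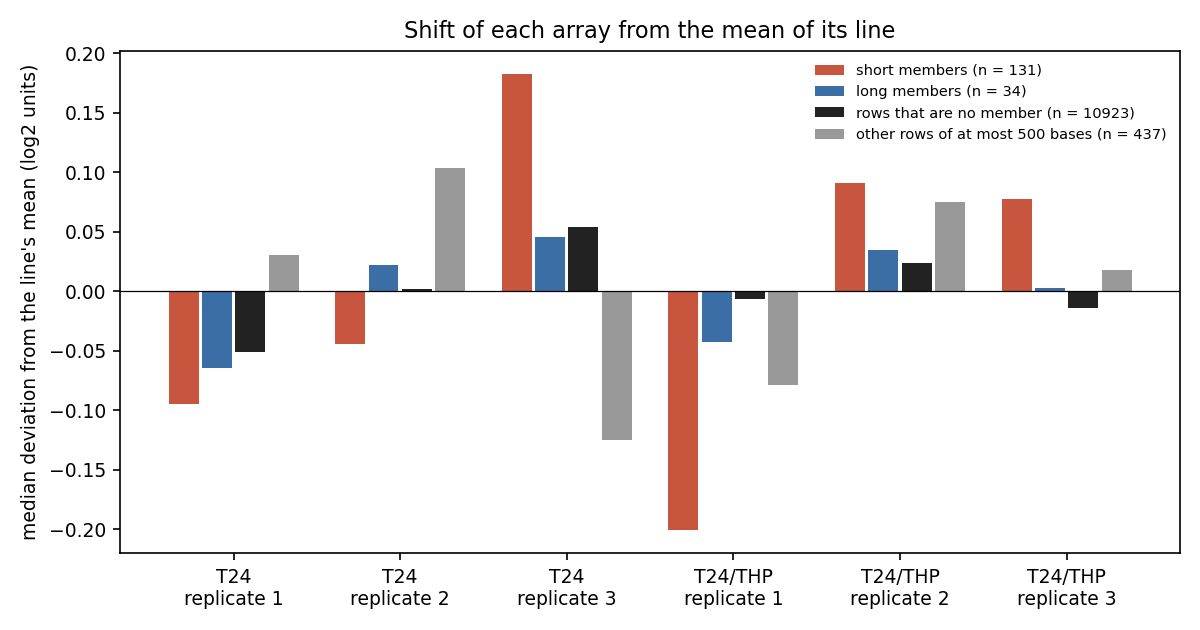
Median deviation of each array from the mean of its line, in log2 units, for short member rows, long member rows, non-member rows and other rows of at most 500 bases, all above background in at least 1 line. Short members were highest on T24 replicate 3 (0.18) and lowest on T24/THP replicate 1 (-0.20). All non-member rows shifted less (0.05 and -0.01), and other rows of at most 500 bases lay low on both arrays (-0.13 and -0.08).

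Few small nucleolar RNAs differed strongly between the lines, and those that did went both ways. A row was called where limma's adjusted p over all 26515 rows was under 0.05 and the difference was at least 1 log2 unit, or 2-fold. Of the 270 rows, 15 were higher in T24/THP, beside 3.02% of all rows tested, and 9 were lower, beside 3.67%. The 8 rows of SNORD117 make up much of the first count: among the 251 distinct rows 8 were higher and 9 lower, or 3.19% and 3.59%, which is near the background. Of these 251 rows, 86 were above background in neither line. Among the 131 short rows above it in at least 1 line, 8 (6.11%) were higher and 3 (2.29%) lower, beside 6.91% and 8.63% of all 11107 such rows. All 8 rises were in short rows. Of the falls, 4 were in short rows and 5 in long rows.

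Calls were few in each class. Distinct box C/D rows gave 5 rises and 5 falls of 145, box H/ACA rows 2 rises and 4 falls of 82, and Cajal body rows 1 rise and 0 falls of 24. The shares were 3.45% both ways for box C/D and 2.44% and 4.88% for box H/ACA, beside 3.02% and 3.67% of all rows. For Cajal body rows they were 4.17% and 0%. At an adjusted p under 0.05 whatever the size, 17 box C/D rows lay higher and 20 lower, and 16 box H/ACA rows higher and 19 lower. Cajal body rows gave 10 higher and 1 lower. Of all 26515 rows 15.5% lay higher and 17.4% lower, and of the 11107 above background in at least 1 line 27.8% and 36.5%. Above background in neither line were 64 of the box C/D rows, 16 of the box H/ACA rows and 6 of the Cajal body rows. Median differences over the short rows were -0.04 log2 units for box C/D, 0.13 for box H/ACA and 0.17 for Cajal body RNAs, beside 0.01 over all 26515 rows. The spread within each class was far wider than these gaps, box C/D short rows running from -1.91 to 1.63. Differences between the classes were not tested.

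Without T24 replicate 3 and T24/THP replicate 1, an alternative chosen after seeing the data, 21 distinct short rows were higher and 4 lower. Without T24 replicate 3 alone 15 were higher, without T24/THP replicate 1 alone 14 were, and cyclic loess normalization of all 6 arrays also gave 14. The 2 arrays were picked because short rows lay high on T24 replicate 3 and low on T24/THP replicate 1. Leaving them out therefore raises the differences of short rows by construction, and the added rises are no independent result. The number of falls in short rows was 4 with and without the 2 arrays. Leaving out T24 replicate 1 or T24 replicate 2 gave 7 falls each.

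**Figure D2:**
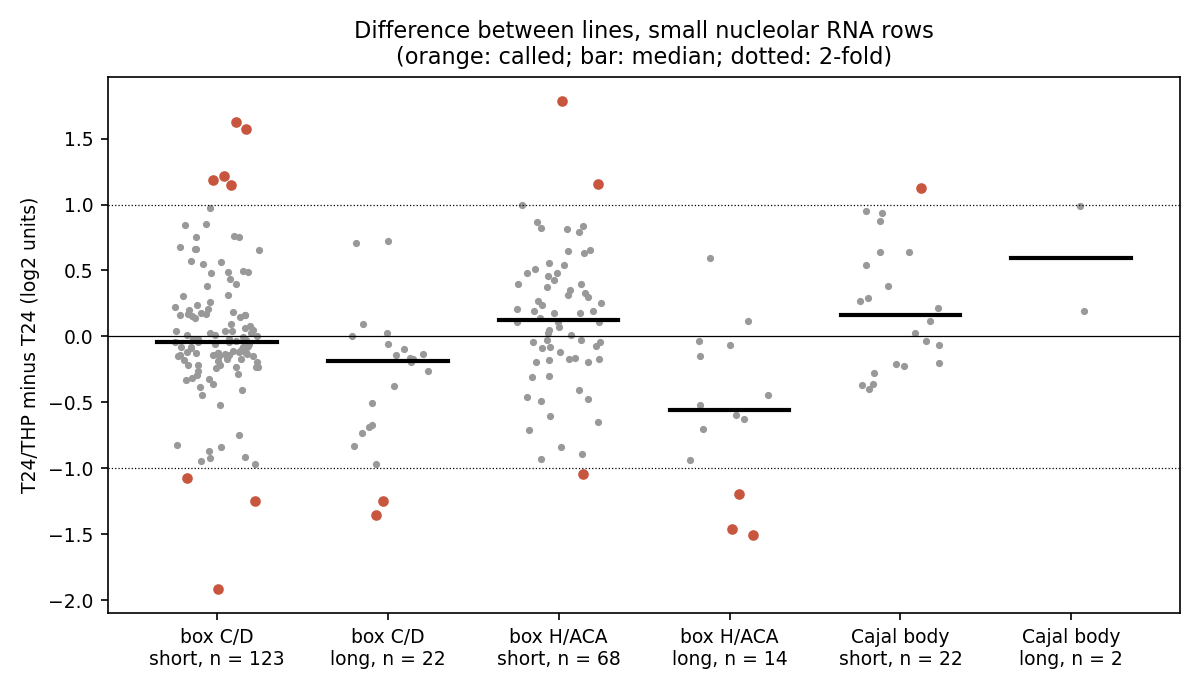
Difference between the lines, T24/THP minus T24 in log2 units, for each distinct row by class and by row length, with the median as a bar, called rows in orange and dotted lines at 2-fold. Rises that passed the test lie only among the short rows, and long rows of box C/D and box H/ACA have lower medians than short ones.

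Among box C/D RNAs the largest rise was that of SNORD71, which guides methylation of the 5.8S ribosomal RNA and lies in an intron of AP1G1 at chr16:71792305-71792390 (GRCh37, minus strand). It read 14.07, 13.79 and 14.83 in the T24 samples and 15.48, 16.10 and 15.99 in the T24/THP samples. All T24/THP values were above all T24 values, and the difference was 1.63 ± 0.27 log2 units (SE, n = 3 and 3, limma adjusted p = 0.00254), or 3.09-fold. SNORD117, in an intron of the RNA helicase gene DDX39B at chr6:31504151-31504226 (minus strand), read 9.78, 9.54 and 9.96 in T24 and 10.62, 11.56 and 11.83 in T24/THP. The groups did not overlap, although T24/THP replicate 1 lay well under the other two, and the difference was 1.57 ± 0.29 (adjusted p = 0.00418).

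SNORD59A, a guide for the 18S ribosomal RNA within the ATP synthase gene ATP5B, read 10.15, 9.67 and 9.83 in T24 against 10.77, 11.27 and 11.26 in T24/THP. The difference of 1.22 ± 0.17 (adjusted p = 0.000999) was again without overlap. SNORD8, which guides methylation of the U6 spliceosomal RNA, rose from a mean of 9.22 ± 0.31 to 10.37 ± 0.39 (SD, n = 3 each), by 1.15 (adjusted p = 0.00477). Its relative SNORD9, for the same target and in the same host gene CHD8, read 8.60, 8.59 and 9.15 against 9.35, 9.94 and 9.98. SNORD9's difference of 0.97 had an adjusted p of 0.00867 and missed the 2-fold size.

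The call on SNORD97, an RNA that guides methylation of the elongator methionine tRNA and lies in EIF4G2, was the least firm. It read 14.70, 14.62 and 13.30 in T24 and 15.19, 15.68 and 15.32 in T24/THP, so T24 replicate 3 lay far under the other two. The difference was 1.19 ± 0.36 (adjusted p = 0.0375) with all arrays and 0.73 (adjusted p = 0.00814) without T24 replicate 3. The long row under the same symbol, on the opposite strand, did not leave the background range in either line.

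Both box H/ACA rises were in introns. SNORA47, in ZBED3 at chr5:76376259-76376396 (minus strand), had the largest rise of all members. It read 7.45, 7.04 and 7.70 in T24 and 8.998, 9.22 and 9.32 in T24/THP, with no overlap and a difference of 1.78 ± 0.16 (adjusted p = 0.000123), or 3.44-fold. SNORA12, in CWF19L1, read 9.77, 9.82 and 9.78 against 10.45, 11.12 and 11.28. Its T24 values were nearly equal, while T24/THP replicate 1 lay lowest of its line, and the difference was 1.15 ± 0.19 (adjusted p = 0.00261). Without T24/THP replicate 3 it was 0.99 and no longer met the 2-fold size.

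The Cajal body RNA that rose was SCARNA7, the U90 RNA that guides methylation of the U1 spliceosomal RNA, from KPNA4. It read 11.60, 11.94 and 12.06 in T24 and 12.85, 13.22 and 12.91 in T24/THP. The difference was 1.13 ± 0.14 (adjusted p = 0.00059), and 0.995 without T24 replicate 1, just under the 2-fold size. SCARNA9, which serves the U2 spliceosomal RNA, read 13.27, 13.37 and 13.42 against 14.03, 14.52 and 14.37, without overlap and with a difference of 0.95 (adjusted p = 0.000683) that was short of 2-fold. SCARNA5 and SCARNA6, guides for the U5 spliceosomal RNA that share the host ATG16L1, differed by 0.94 and 0.88 (adjusted p = 0.000276 and 0.00976).

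**Figure D3:**
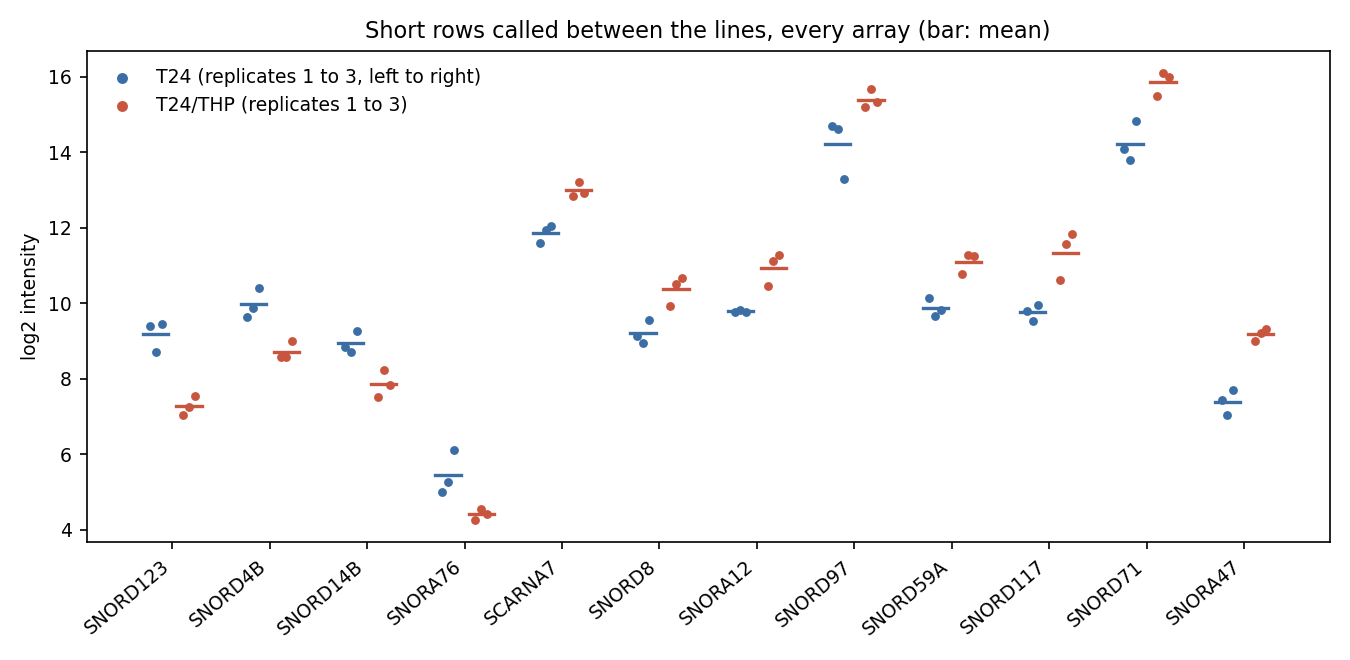
log2 intensity on every array for the 12 short rows called between the lines, ordered by difference, with T24 in blue, T24/THP in orange and bars at the means. The rows run from SNORD123 (-1.91) to SNORA47 (1.78), and T24 replicate 3 of SNORD97 lies far below the other 2. They were picked by the call, which favours rows whose lines lie apart, so the gaps between lines are no further support.

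Among the falls, SNORD123 changed most. It lies at chr5:9548939-9549026 (plus strand) within LOC100505806 and read 9.41, 8.71 and 9.46 in T24 against 7.05, 7.25 and 7.54 in T24/THP. The groups were well apart, and the difference was -1.91 ± 0.21 (adjusted p = 0.000313), 3.77-fold lower. LOC100505806 itself, a noncoding gene, fell by 1.18 and entered the background range in T24/THP, which gives at least 1.39-fold.

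SNORD4B, an 18S ribosomal RNA guide in the ribosomal protein gene RPL23A, read 9.63, 9.87 and 10.42 in T24 and 8.59, 8.57 and 9.01 in T24/THP, a difference of -1.25 ± 0.21 (adjusted p = 0.00241). Without T24 replicate 3 and T24/THP replicate 1 it was -0.96 and no longer called. The array has no row under the symbol of that host with SNORD4B inside it, but the long row named SNORD42B covers the place and differed by -0.97. SNORD42A, in the same long row, differed by 0.31 (adjusted p = 0.0916). SNORD42A minus the long row moved by 1.28, which was called, and SNORD4B minus the long row by -0.28, which was not.

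SNORA76 had means of 5.45 ± 0.58 and 4.41 ± 0.15, both in the background range, so no fold is given for its called difference of -1.04. Without T24 replicate 3 the difference was -0.72.

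The RNAs that serve cleavage or modification of the ribosomal precursor were described whatever their values. SNORD3A, the U3 RNA needed for the early cleavages, read 15.72, 15.94 and 15.68 in T24 and 15.45, 15.87 and 15.73 in T24/THP, and the lines overlapped. The 4 distinct U3 rows differed by -0.15 to -0.08, none passing the test, and lay above 0 under cyclic loess normalization, though U3 copies are near identical and their probes may share signal. SNORD13, the U13 RNA that guides acetylation of the 18S ribosomal RNA, read 19.33, 19.28 and 19.41 against 19.45, 19.56 and 19.50. Its difference of 0.16 (adjusted p = 0.0888) was small, and at this brightness an array may no longer respond in proportion.

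U14 is both a cleavage factor and a guide, and 1 of its 4 rows was called. SNORD14B, in the ribosomal protein gene RPS13, read 8.84, 8.71 and 9.28 in T24 and 7.52, 8.23 and 7.85 in T24/THP, without overlap. It fell by 1.08 ± 0.20 (adjusted p = 0.00473), close to the 2-fold size. The difference was -0.97 under quantile normalization, -0.99 under cyclic loess and -0.98 with an offset of 32. Without T24 replicate 3 it was -0.91, without T24/THP replicate 1 -0.90, and without both arrays -0.74. All of these are under the 2-fold size. SNORD14A in the same gene differed by -0.45, and SNORD14D and SNORD14E in the heat shock gene HSPA8 by -0.24 and -0.40, none with an adjusted p under 0.05. RPS13 fell from 15.66 ± 0.06 to 14.53 ± 0.15, by 1.13. SNORD14B minus RPS13 moved by 0.06 ± 0.20 (adjusted p = 0.865).

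The brightest rows of each class differed little, apart from the Cajal body RNAs named above. SNORD105B differed by 0.39 and SNORD46 by 0.09, with adjusted p of 0.0884 and 0.829. Of the brightest box H/ACA rows, SNORA23 differed by 0.18, SNORA24 by -0.30 and SNORA48 by 0.48, the last with an adjusted p of 0.0103. SCARNA12 differed by 0.27 (adjusted p = 0.166). At the other end, 39 of the 40 SNORD113 and SNORD114 rows, copies from the imprinted cluster on chromosome 14, lay under the background bound of each line. None of the 40 was called, and their differences ran from -0.38 to 0.49.

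Of the 38 long rows 5 were called lower in T24/THP (13.2%) and 0 higher, beside 3.67% and 3.02% of all rows. Among the 38, 34 were above background in at least 1 line, and of all such rows 8.63% were lower and 6.91% higher. Short rows gave 4 of 213 lower (1.88%). A difference below 0 was found in 29 of the 38 long rows and 105 of the 213 short rows, with medians of -0.23 and 0.01. The median level was 8.46 over the long rows and 6.35 over the short ones, and the difference between the kinds was not tested. The row named SNORA29 lies over TCP1, a subunit of the cytosolic chaperonin, and read 12.43, 12.62 and 12.59 in T24 and 11.02, 11.24 and 10.87 in T24/THP. It differed by -1.51 ± 0.10 (adjusted p = 3.11e-05). The row SNORA41, over the translation elongation factor gene EEF1B2, read 10.80, 11.05 and 10.94 against 9.40, 9.65 and 9.36, a difference of -1.46 ± 0.10 (adjusted p = 2.92e-05). Neither pair of groups overlapped.

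The other called long rows lay over noncoding host genes: SNORD27 over SNHG1 differed by -1.35, SNORD1C over SNHG16 by -1.25 and SNORA9 over SNHG15 by -1.20, each with an adjusted p under 0.05 and no overlap. With an offset of 32, SNORA9 differed by -0.91 and was no longer called. Over the 14 ribosomal protein rows the median was -0.48, with 9 lower at an adjusted p under 0.05 and none past 2-fold. At that adjusted p alone 17.4% of all rows and 36.5% of those above background lay lower. The 15 host gene rows ran from -1.35 to 0.99 with a median of -0.09. At their upper end SCARNA16, over SNHG20 and SEC14L1, read 10.03, 9.94 and 10.05 in T24 and 11.00, 11.05 and 10.95 in T24/THP. GAS5, under the name SNORD47, differed by -0.09.

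Small RNAs inside a long row did not always follow it. SNORA20, inside the SNORA29 row over TCP1, read 9.41, 9.49 and 10.20 in T24 and 9.99, 10.38 and 10.27 in T24/THP, an overlap. Its difference of 0.51 set against -1.51 for the long row gave 2.02 ± 0.21 (adjusted p = 0.000333). SNORD51, inside the SNORA41 row over EEF1B2, differed by -0.94 beside -1.46, a gap of 0.51 that was not called. SNORD1A and SNORD1B, inside the SNORD1C row, differed by -0.75 and -0.92 beside -1.25, and neither gap was called. Taking long rows as hosts as well was an alternative chosen after seeing the data. With it 50 member pairs were called higher and 1 lower, beside 47 and 1 in the main comparison described next.

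Each small RNA was then compared with a named gene on the same strand that spans it. The quantity was the member's value minus the spanning gene's on the same array, compared between the lines, so that a value above 0 says that the small RNA's difference was higher than its host's. It was fitted over all 1598 nested pairs of rows, of which 162 had a member inside, or 149 when rows with the same values were counted once. The 149 lay in 115 genes. Among the 162 pairs 47 were called higher, beside 7.2% of all nested pairs, and 1 lower, beside 3.75%.

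Small RNAs were thus often higher relative to their hosts in T24/THP, and rarely lower. In distinct pairs the counts were 40 and 1 of 149, or 26.8% and 0.671%. Pairs whose inner row is no member gave 68 and 59 of 1436. The median difference was 0.07 for the small RNAs, -0.41 for their spanning genes and 0.57 for the pairs. Where both rows were above background in both lines, 29 of 93 member pairs were called higher and 0 lower, and 26 and 17 of 166 other pairs.

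By class, 20 of 65 box C/D pairs, 13 of 64 box H/ACA pairs and 7 of 20 Cajal body pairs were called higher. These shares were 30.8%, 20.3% and 35%, beside 7.2% of all nested pairs. In the same order 0, 1 and 0 pairs were called lower, beside 3.75%. Of the 40 pairs called higher, 20 had a spanning gene called lower and a small RNA that was not called. Another 7 had a small RNA called higher and a gene that was not called, and in 13 neither was called alone. A row that was not called may still have an adjusted p under 0.05 at a smaller size, as DDX39B has. In 9 of the 40 the small RNA stayed under the background bound of each line, where the pair shows only the gene's fall. Across the 149 pairs the differences of small RNA and gene had a Pearson correlation of 0.21 and a Spearman correlation of 0.21, as a description over pairs that share genes and arrays.

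**Figure D4:**
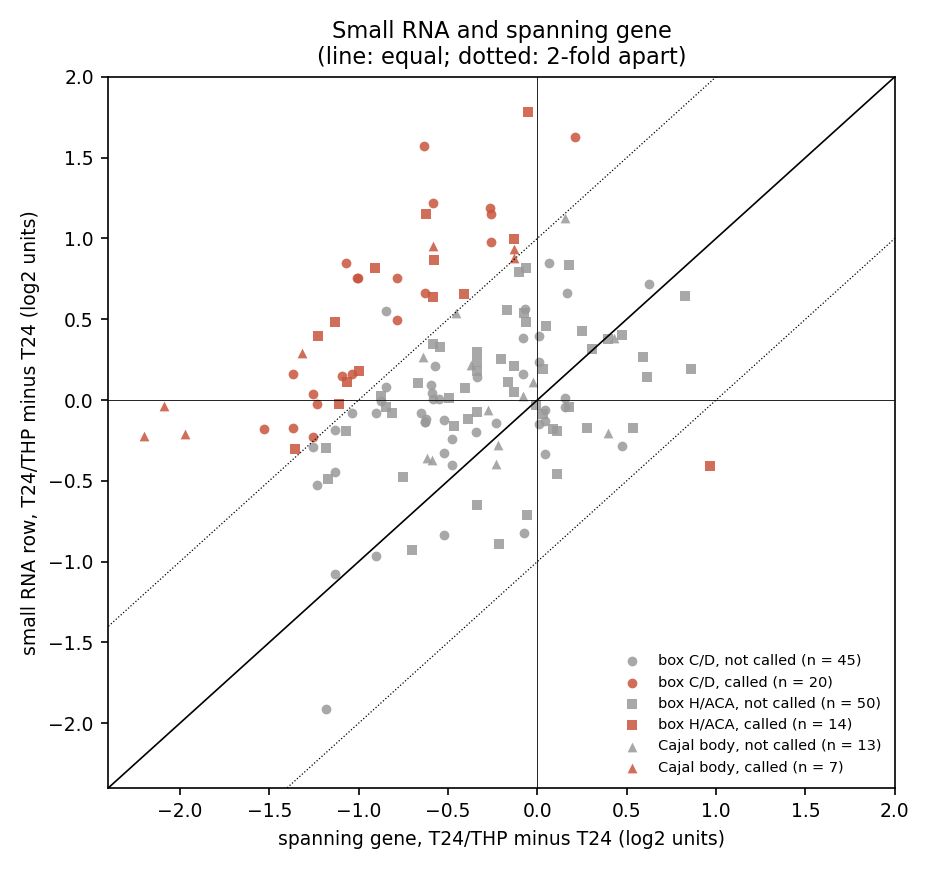
Difference between the lines (log2 units) of each small RNA row against that of the gene that spans it, for 149 distinct pairs by class, with called pairs in orange, the line of equal difference and dotted lines at 2-fold apart. Called pairs lie above the upper dotted line except SNORA70E at the right, and most of the genes lie left of 0.

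The highest pair values came from both sides. SNORD117 minus DDX39B moved by 2.21 ± 0.31 (adjusted p = 0.00135), as SNORD117 rose while the gene read 11.54, 11.69 and 11.69 in T24 and 11.02, 11.07 and 10.94 in T24/THP. SCARNA9L, a near copy of SCARNA9, read 9.74, 9.94 and 10.20 against 9.84, 9.86 and 10.07, an overlap, within EIF1AX, a translation start factor that read 13.61, 13.88 and 13.54 against 11.52, 11.47 and 11.78. That pair moved by 2.05 ± 0.17 (adjusted p = 0.000123) through the gene's fall of 2.09. SCARNA23 in POLA1, the catalytic subunit of DNA polymerase alpha, gave 1.97 ± 0.15 (adjusted p = 0.000101), but SCARNA23 itself stayed under the background bound.

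SNORD119 read 11.43, 11.35 and 11.92 in T24 and 12.04, 12.53 and 12.67 in T24/THP. Its host SNRPB, a core protein of the spliceosomal particles, read 8.76, 9.16 and 9.20 against 7.86, 8.14 and 7.91. The small RNA and the gene thus lay apart in opposite directions, and the pair moved by 1.92 ± 0.20 (adjusted p = 0.000313). SNORA47 minus ZBED3 moved by 1.83 ± 0.15 (adjusted p = 0.00013), while ZBED3 stayed under the background bound.

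The single pair that went the other way was SNORA70E in RAB30, at -1.37 ± 0.29 (adjusted p = 0.00982). SNORA70E read 6.75, 6.96 and 5.94 against 5.88, 6.23 and 6.31, an overlap. RAB30, a small GTPase of the Golgi, read 5.20, 5.48 and 5.44 in T24 and 6.43, 6.31 and 6.27 in T24/THP, at least 1.75-fold higher from a T24 mean in the background range.

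The spanning genes as a group were lower in T24/THP. Of the genes that span a member 23, or 19.8%, fell and 0 rose, beside 3.67% and 3.02% of all rows, and 65 lay lower and 15 higher at an adjusted p under 0.05 alone, beside 17.4% and 15.5% of all rows and 36.5% and 27.8% of those above background. Cyclic loess normalization left 15 falls and 2 rises. Their median was -0.40. They are brighter than most rows, and among all 11107 rows above background in at least 1 line 8.63% fell and 6.91% rose. The largest falls were those of POLA1 (-2.20), EIF1AX (-2.09), TIPIN (-1.97), which protects replication forks, CKAP5 (-1.53), which binds microtubules, and TSR1 (-1.36), a factor of small ribosomal subunit maturation.

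In the 30 distinct pairs with a called spanning gene, 2 members were called lower, SNORD123 and SNORD14B, beside 3.67% of all rows, and 0 higher. Of the 30 pairs 20 were called. The pair value subtracts the fall by which these genes were selected, so a small RNA near 0 can give a called pair by construction. The small RNAs' median difference there was -0.13, over a range of -1.91 to 0.85, and 18 of the 30 members were above background. In the other 119 pairs 8 members rose and 0 fell, with a median of 0.11. Of all rows 3.02% rose and 3.67% fell, and of rows above background 6.91% and 8.63%. The sets of 30 and 119 pairs were not tested against each other.

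Several small RNAs in 1 gene did not always move alike. In the 24 genes with at least 2 distinct members, the gap between the highest and lowest member's difference ran from 0.05 to 1.21 log2 units, with a median of 0.44. ATG16L1 and CHD8 had both members high. In ATP5B, SNORD59A rose by 1.22 while SNORD59B differed by 0.0035. In KANSL2, SNORA34 differed by 0.996, SNORA2B by 0.21 and SNORA2A by 0.05.

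In NOP58, itself a core protein of the box C/D particle, SNORD70 differed by 0.67, SNORD11 by -0.14 and SNORD11B by -0.13, beside -0.63 for the gene. LOC388796 was the only gene with 4 members. SNORA71A, SNORA71B, SNORA71C and SNORA71D differed there by 0.30, 0.23, -0.07 and 0.18, none with an adjusted p under 0.05, while the gene read 7.25, 7.60 and 7.58 in T24 and 7.17, 7.15 and 7.09 in T24/THP.

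**Figure D5:**
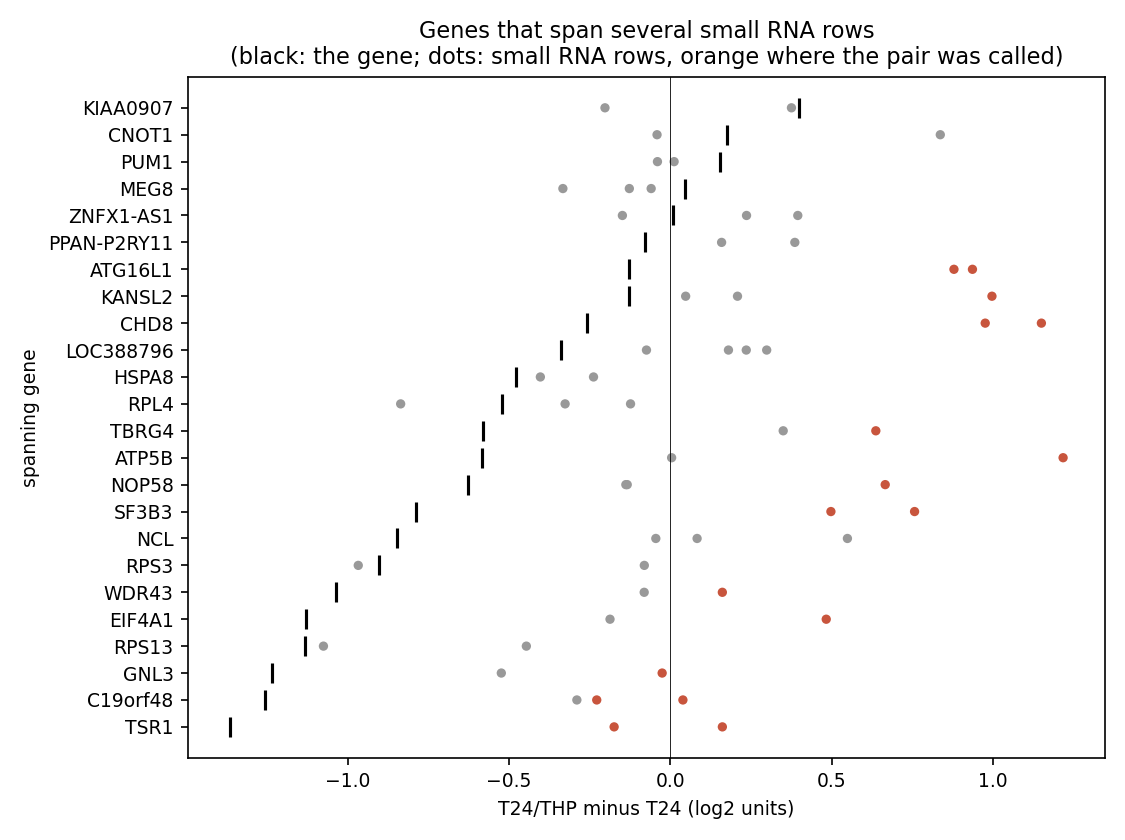
Differences between the lines (log2 units) in the 24 genes that span at least 2 distinct small RNA rows, with the gene as a black bar and its small RNAs as dots, orange where the pair was called. Small RNAs lie to the right of their gene in most rows, and those of RPS13, RPS3 and RPL4 reach furthest to the left.

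Many hosts of small nucleolar RNAs are known for a pyrimidine tract at the start of transcription, which marks messages of the translation machinery. The 30 bases from 20 before to 10 after the RefSeq start (GRCh38.p14) were searched on the transcribed strand only, from 5 bases before the start, for a C followed by at least 5 bases that are C or T. It was found in 25 of 88 spanning genes with a window, or 28.4%, and in 10.3% of all 35116 windows. Capitals mark the tract in 3 hosts whose small RNAs are described above, and EIF1AX, with no match, is shown beside them.
RPS13, chr11:17077658-17077687, minus strand: ggcgtttccactctcgCTCTCCTTTCgttg
IPO7, chr11:9384632-9384661, plus strand: gggccttggcgcttctCTTTCCTTTCgcgc
SNHG8, chr4:118278742-118278771, plus strand: tgccgaaggcctcggCCTTTCacattcggg
EIF1AX, chrX:20141829-20141858, minus strand: gcgacgcaaagagtcgcggcgccatttgct

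Of the 25 genes with the tract 6 fell, and of the 63 without it 14 fell, with median differences of -0.58 and -0.39. RPS13 fell by 1.13 and SNHG8, the host of SNORA24, by 1.18. IPO7, the host of SNORA23, differed by -0.995 and just missed the 2-fold size. A match describes these letters alone.

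Several genes for the proteins that bind, build and process these RNAs were lower in T24/THP. Of 31 listed genes 30 had a row, of which 5 fell and 0 rose, beside 3.67% and 3.02% of all rows and 8.63% and 6.91% of those above background. At an adjusted p under 0.05 alone 20 lay lower and 0 higher, beside 17.4% and 15.5% of all rows and 36.5% and 27.8% of those above background, and the median was -0.47. FBL, the methyltransferase of box C/D particles, read 11.73, 11.87 and 11.98 in T24 and 10.36, 10.47 and 10.44 in T24/THP, a difference of -1.44 ± 0.08 (adjusted p = 1.07e-05). DKC1, which encodes dyskerin, the pseudouridine synthase of box H/ACA particles, read 10.60, 11.13 and 10.92 against 9.04, 9.13 and 8.92. DKC1 differed by -1.85 ± 0.13 (adjusted p = 3.88e-05), or 3.61-fold lower, and neither gene's groups overlapped.

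The other 3 that fell act in assembly. NOLC1, a chaperone of the particles in nucleolus and Cajal body, differed by -1.69, NUFIP1, a platform for their assembly, by -1.24, and RUVBL1, an ATPase of the assembly complex, by -1.15. NOP58 differed by -0.63 and GAR1, the box H/ACA partner of dyskerin, by -0.70, both under 2-fold. Of the other genes on the box C/D protein list, RRP9 differed by -0.38 (adjusted p = 0.00206). SNU13 differed by -0.11 (adjusted p = 0.314) and stayed under the background bound of each line. NOP56, also of that list, had no row under its own symbol, but the long row named SNORD56 lies over it. That row read 9.27, 9.64 and 9.55 in T24 and 8.81, 8.88 and 8.76 in T24/THP. COIL, the scaffold of Cajal bodies, differed by -0.01, the least of the 6 listed Cajal body genes. At an adjusted p under 0.05 alone 4 of these 6 lay lower and 0 higher, with a median of -0.37. The shares beside them were 17.4% and 15.5% of all rows, and 36.5% and 27.8% of those above background. Protein levels and the modification of the target RNAs were not measured.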

How the data were processed

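Total RNA was extracted with TRIZOL, purified on RNeasy columns with DNase, and amplified to biotin-labelled cDNA (WT PLUS kit), per the labels' protocols. Per the submitters' processing notes the authors used Affymetrix Expression Console; no source names its settings. The authors deposited a log2 intensity for each transcript cluster on each array, and coordinates are those of the deposited table (GRCh37).

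The 26515 rows with 1 symbol were compared by limma's moderated test (version 3.58.1, R 4.3.3; eBayes on 2 groups of 3 arrays, two-sided, Benjamini-Hochberg over all rows), without a filter. Nested pairs on 1 strand were fitted as differences within an array; the shortest spanning gene was taken. Calls needed an adjusted p under 0.05 and 1 log2 unit. The background bound of a line was the mean over its arrays of the brightest of 23 control probe sets. A value in that range gives "at least" a fold. The fit was tested on simulated data with 200 changed rows. No slide or scan date was used. Members and lists were chosen with earlier results of these data known. Text names called members (up to 5 per direction and class), the 3 brightest rows per class, RNAs of ribosomal precursor processing, genes with 4 or more members, up to 5 called pairs per direction and called particle protein genes. Others named for a shared host or long row were chosen after their values were seen.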

Additional observations from a re-analysis of the deposited data

How the results depend on the processing

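With 3 arrays a line the counts of calls moved more than their directions. Beside 15 rows higher and 9 lower, quantile normalization gave 20 and 8, cyclic loess 22 and 8, and an offset of 32 on the linear scale 14 and 6. Under quantile and cyclic loess normalization 4 Cajal body rows each were higher, cyclic loess made 14 distinct short rows higher and put 2 spanning genes higher and 15 lower, and the offset left 2 box H/ACA rows and 2 distinct short rows lower. With 1 row per symbol 8 rows were higher, 5 of them box C/D. Tested against a 2-fold difference, 1 row was higher and 2 lower. By class these were 0 and 0 for box C/D, 1 and 2 for box H/ACA and 0 higher for Cajal body RNAs; distinct short rows gave 1 and 0, spanning genes 4 lower, protein genes 3 lower, and member pairs 9 higher and 0 lower.

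Leaving out 1 array at a time, rows higher ran from 14 to 23 and lower from 8 to 13, box C/D from 11 to 15 and 5 to 8, box H/ACA from 1 to 6 and 3 to 5, Cajal body rows higher from 1 to 3. Distinct short rows ran from 6 to 15 higher and 3 to 7 lower, member pairs from 41 to 57 and 1 to 2, and spanning genes from 0 to 1 and 19 to 24. Without T24 replicate 3 and T24/THP replicate 1 together, chosen after seeing the data, 29 rows were higher, of which 17 were box C/D, 7 box H/ACA and 5 Cajal body, 21 distinct short rows were higher, and 60 member pairs were higher and 1 lower. Identical rows counted once gave 8 higher, short rows 8 and 4 lower, long rows 0 and 5 lower.

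Signs that turned belonged to differences that had not passed the test. Under cyclic loess SNORD3A was at 0.131, SNORD3B-1 at 0.0707, SNORD3C at 0.0918, SNORD3D at 0.138, SNORA71C at 0.133 and SCARNA9L at 0.0883, and under quantile normalization SCARNA9L was at 0.0679. With 1 array, or T24 replicate 3 and T24/THP replicate 1 together, left out, SNORD46 ran from -0.0839 to 0.532, SNORA24 from -0.437 to 0.0150, SNORD14E from -0.576 to 0.0149, SNORD14D from -0.481 to 0.257, SNORD3A from -0.194 to 0.0178, SNORD3D from -0.160 to 0.0224, SNORD3C from -0.236 to 0.0201, SNORA71C from -0.177 to 0.164, SCARNA9L from -0.146 to 0.124 and ZBED3 from -0.104 to 0.000852. The cause was not tested.

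With the replicate number as a block (replicate block) 15 rows were higher and 9 lower, and 48 member pairs higher and 1 lower. Same-numbered arrays correlated at 0.02, 0.14 and -0.01 in their deviations, so the numbers were not taken to pair the samples.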
